A study of Mus musculus with 4 samples.

Results

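Members of AP-1 and other immediate early genes were compared between AML12 cells grown in 2D and in 3D. The members were the rows of the deposited gene table named Fos, Fosb, Fosl1, Fosl2, Jun, Junb, Jund, Egr1, Atf3 and Ier3. They were chosen by name, with earlier results of these data known, and all 10 were found among 31828 genes. AML12 is an immortalised line of hepatocytes from a mouse transgenic for human TGF-alpha, a ligand of the EGF receptor, and it is 1 line, so other hepatocytes were not sampled. The 2D libraries came from cells on plain dishes and the 3D libraries from cells embedded in Matrigel, a basement membrane extract, with 2 libraries per culture and 4 in all. Every culture received fetal calf serum, insulin, transferrin, selenite, dexamethasone and 1 mM hydroxyurea, an inhibitor of DNA replication used here to synchronise the cells. Hydroxyurea was added to 2D cells at a set confluence and to 3D cells after 24 h of growth. It was present for 24 h in 2D and 36 h in 3D. Growth dimension, contact with Matrigel, stage of the culture and exposure time therefore cannot be told apart in these libraries. How cells were recovered from Matrigel for RNA is not given in the sources used here.

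AP-1 is a transcription factor made of pairs of basic leucine zipper (bZIP) proteins, in which a JUN protein pairs with another JUN, with a FOS protein or with some ATF proteins. Immediate early genes are transcribed within minutes of a stimulus such as serum, growth factors, stress or attachment, without new protein synthesis, mostly through MAP kinases acting on factors already bound to their promoters. In liver, c-Jun is needed for hepatocyte survival and regeneration, and several of these genes rise in the first hour after partial hepatectomy. One member, Ier3, encodes a small protein of the apoptosis and ERK pathways and is not itself a DNA-binding factor.

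The unit throughout is TPM, the share of a library's transcripts that a gene makes up, scaled to a fixed total and corrected for transcript length, so that levels of different genes can be set side by side. Sequencing depth cannot be read from these values and is unknown. The labelled hepatocyte identity held in part. Of 9 hepatocyte markers 8 reached a mean of 1 TPM. The most abundant, Krt18 and Krt8, and also Cdh1, are expressed in other epithelial cells too. Alb had a mean of only 1.01 TPM in 2D and 11.4 TPM in 3D, and Fgb was at or near 0. Outside this list, Krt19, a keratin of biliary epithelium, had means of 1687 TPM in 2D and 1200 TPM in 3D. Krt7, another keratin, had means of 492 and 313 TPM. Summed, the 9 hepatocyte markers were at 9630 and 9427 TPM in 2D and at 5647 and 5724 TPM in 3D. Most of that sum was Krt18 (means of 6207 TPM in 2D and 3297 TPM in 3D) and Krt8 (3220 and 1821 TPM), both lower in 3D. The other 6 that reached a mean of 1 TPM, Alb, Hnf4a, Ttr, Apoa1, Cdh1 and Trf, were higher in 3D. Over the 8 the median log2 fold change, 3D over 2D, was 1.78, so the sum does not describe most of these markers. The part of these differences in the results for the members was not tested. Summed markers of fibroblasts and stellate cells were 35.0 to 37.7 TPM in 2D and 19.0 to 20.1 TPM in 3D, nearly all of it Des, and 7 of the 8 in the table, Col1a1 among them, were under 1 TPM. Leukocyte markers summed to 23.3 and 22.4 TPM in 2D and 27.3 and 24.0 TPM in 3D, mostly Cd68, with Ptprc under 1 TPM, and endothelial markers to 1.88 and 2.54 TPM in 2D and 6.32 and 6.52 TPM in 3D, with Vwf higher in 3D and the other 4 under 1 TPM. Replicate libraries correlated at 0.991 in 2D and 0.992 in 3D across 14116 genes, which are not independent replicates. In bulk RNA, fewer cells expressing a gene and less RNA per cell cannot be told apart.

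The 10 members did not move as 1 block. In 3D, Fosl1, Fosl2, Junb, Egr1 and Atf3 were lower, Jund and Ier3 were higher, and Fos, Fosb and Jun did not pass the test. The difference in Atf3 did not pass in several alternative fits described below. A gene was called at an adjusted p-value under 0.05 in limma's moderated test on log2(TPM + 1), adjusted over all 14116 genes with a mean of at least 1 TPM, and all 10 members were tested. Of the members 7 were called, against 50.5% of all tested genes. In the higher direction 2 were called, against a background of 23.4%, and in the lower direction 5, against 27.1%. For 8 of the 10, both libraries of one culture lay above both of the other, which held for 77.5% of all tested genes. The median log2 fold change (3D over 2D) was -0.32 over the members and -0.04 over all tested genes. With so wide a background, the count alone sets the members little apart from other genes, and the values of single members carry the description. Nothing in the labels says whether the RNA replicates came from separate cultures, so these p-values measure the spread between the libraries, which may be technical.

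**Figure D1:**
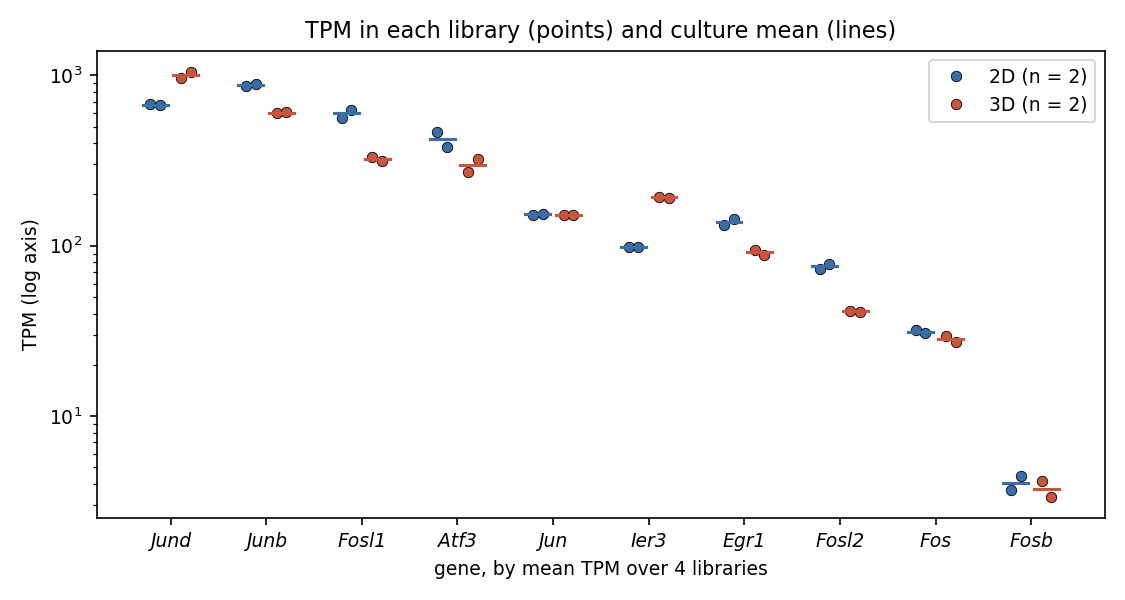
TPM of the 10 genes in each library, on a log axis, ordered by mean TPM. Points are single libraries (2 per culture, 2D blue and 3D red) and lines are culture means. Jund and Junb change places at the top, Fosl1 and Fosl2 sit lower in 3D, and Ier3 sits higher. For Jun, Fos and Fosb the 2 culture means lie close together.

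Levels spanned a wide range. In 2D the order from the top was Junb, Jund, Fosl1, Atf3, Jun, Egr1, Ier3, Fosl2, Fos and Fosb. In 3D it was Jund, Junb, Fosl1, Atf3, Ier3, Jun, Egr1, Fosl2, Fos and Fosb. Among neighbours in these orders, the libraries overlapped only for Fosl1 and Atf3 in 3D. Jund and Junb had mean levels above 99.1% and 99.0% of tested genes, while Fosb stood above 19.2%.

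Within the FOS family, the FRA-type genes were lower in 3D and the classical Fos and Fosb did not pass the test. Fosl1, which encodes FRA1, a FOS protein without a strong activation domain that is abundant in migrating and transformed epithelial cells, was at 564 and 630 TPM in 2D and at 331 and 313 TPM in 3D. Both 3D libraries lay below both 2D libraries. The log2 fold change was -0.89 (standard error 0.07, adjusted p = 0.000996 in limma), a 3D mean of 0.539 of the 2D mean, and 5.40% of all tested genes had a lower fold change. Fosl2, which encodes the related FRA2, was at 72.6 and 78.4 TPM in 2D and at 41.7 and 41.0 TPM in 3D, again without overlap. Its log2 fold change was -0.85 (standard error 0.06, adjusted p = 0.000808 in limma), close to that of Fosl1.

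Fos, the prototype immediate early gene, was at 32.1 and 30.6 TPM in 2D and at 29.5 and 27.2 TPM in 3D. The 3D libraries were just below the 2D libraries, and the log2 fold change of -0.14 had a 95% interval of -0.32 to 0.04 (adjusted p = 0.155, limma). Fosb was the lowest of the 10 at 3.67 and 4.45 TPM in 2D and 4.13 and 3.37 TPM in 3D. Its libraries overlapped between cultures, and the interval of its log2 fold change ran from -0.47 to 0.28 (adjusted p = 0.623, limma). A change of Fosb of the size seen for Fosl1 lies outside that interval.

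Among the JUN genes, Junb and Jund moved in opposite directions while Jun stayed within a narrow range. Junb, an early response gene whose protein can restrain c-Jun activity, was at 860 and 889 TPM in 2D and at 599 and 606 TPM in 3D. The groups did not overlap, and the log2 fold change was -0.54 (standard error 0.03, adjusted p = 0.000704 in limma). Jund, whose product is present in most resting cells and is the least inducible of the JUN proteins, was at 680 and 669 TPM in 2D and at 971 and 1046 TPM in 3D. Here both 3D libraries were the higher ones, with a log2 fold change of 0.58 (standard error 0.05, adjusted p = 0.00121 in limma). Jun, which encodes c-Jun, was at 151 and 154 TPM in 2D and at 152 and 151 TPM in 3D. Its log2 fold change was -0.01 with a 95% interval of -0.11 to 0.09 (adjusted p = 0.844, limma), the narrowest bounds among the 3 members that did not pass.

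**Figure D2:**
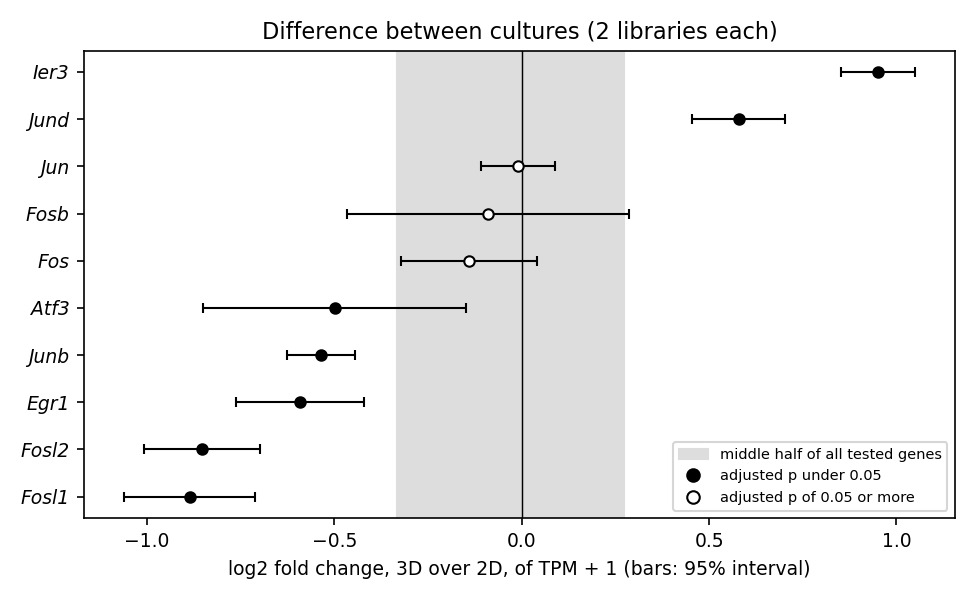
Log2 fold change of TPM + 1, 3D over 2D, for the 10 genes, with 95% intervals from limma and 2 libraries per culture. Filled points passed an adjusted p-value of 0.05 and open points did not, and the grey band runs from -0.33 to 0.27, the range between the lower and upper quartile of all tested genes. Ier3 and Jund lie to the right of the band, and Fosl1, Fosl2, Egr1, Junb and Atf3 to its left.

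Summed over each family, FOS transcripts were lower in 3D and JUN transcripts were nearly level. The summed TPM of Fos, Fosb, Fosl1 and Fosl2 was 672 and 744 in 2D and 406 and 385 in 3D, a log2 ratio of the means of -0.84. The summed TPM of Jun, Junb and Jund was 1692 and 1711 in 2D and 1722 and 1804 in 3D, a log2 ratio of 0.05. These sums are given as a description, without a test. The ratio of JUN to FOS transcripts was 2.41 ± 0.151 in 2D and 4.46 ± 0.318 in 3D (SD, n = 2 each).

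The make-up of the families is described next. Fosl1 gave 84.3% ± 0.601 of the FOS family TPM in 2D and 81.4% ± 0.0463 in 3D (SD, n = 2 each), so that the family sum follows this gene. The share of Fos was 4.45% ± 0.464 in 2D and 7.17% ± 0.138 of the smaller sum in 3D (SD, n = 2 each), while its own level did not pass the test. In the JUN family, Junb gave 51.4% ± 0.743 in 2D and 34.2% ± 0.829 in 3D, and Jund gave 39.6% ± 0.782 and 57.2% ± 1.14 (SD, n = 2 each). The TPM ratio of Jund to Junb was 0.790 and 0.753 in 2D and 1.62 and 1.73 in 3D, below 1 in both of the former and above 1 in both of the latter. A ratio of 2 genes within a library does not depend on how that library was scaled. These are transcript levels, and protein levels or dimers were not measured.

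**Figure D3:**
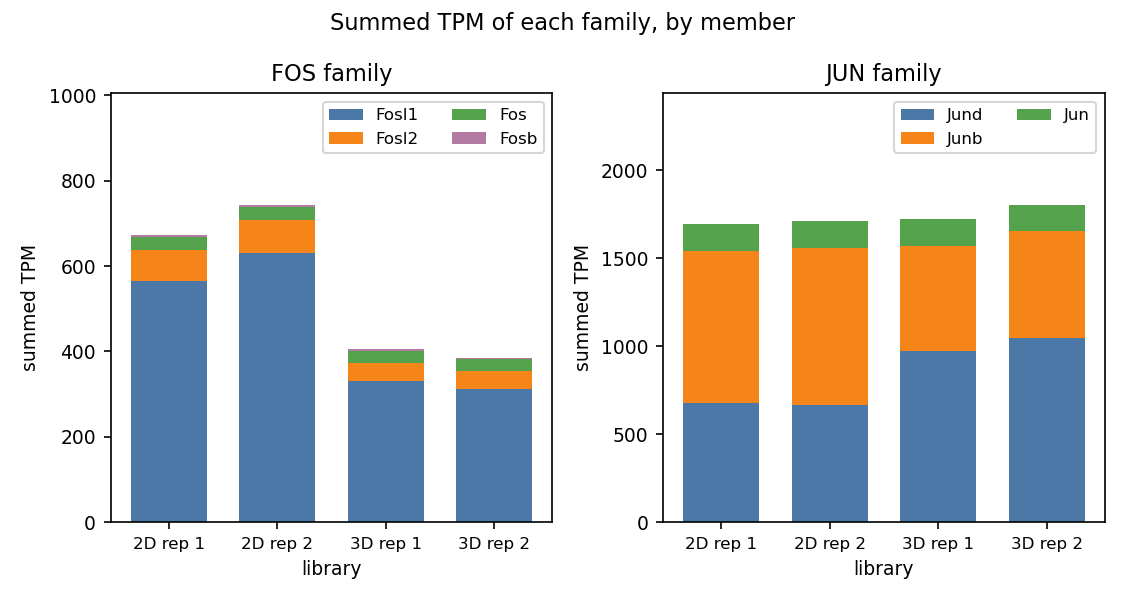
Summed TPM of the FOS family (left) and the JUN family (right) in each of the 4 libraries, stacked by member. The FOS bars reach 672 and 744 in 2D and 406 and 385 in 3D, most of each bar being Fosl1, while the JUN bars stay between 1692 and 1804 with more Jund and less Junb in 3D.

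The remaining members are the zinc finger gene Egr1, the stress gene Atf3 and Ier3. Egr1, a growth factor-induced activator of many secondary response genes, was at 132 and 144 TPM in 2D and at 94.3 and 88.2 TPM in 3D. The cultures did not overlap, and the log2 fold change was -0.59 (standard error 0.07, adjusted p = 0.00266 in limma). Ier3 was at 98.7 and 98.8 TPM in 2D and at 193 and 191 TPM in 3D. Its replicates lay closer together than those of any other member in 2D, and the log2 fold change of 0.95 (standard error 0.04, adjusted p = 0.000308 in limma) was the largest of the 10, a 3D mean of 1.94 times the 2D mean.

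Atf3, which encodes a stress-induced bZIP factor that pairs with JUN proteins and represses many promoters as a homodimer, was at 463 and 379 TPM in 2D and at 270 and 325 TPM in 3D. The groups did not overlap, but in each culture the replicates differed more, relative to their mean, than those of the other members above 100 TPM in that culture. The log2 fold change was -0.50 (standard error 0.13, adjusted p = 0.0337 in limma). This call was lost, with adjusted p-values of 0.160, 0.0589 and 0.131, without 2D replicate 1, without 2D replicate 2 and without 3D replicate 1. It was also lost with the replicate block (adjusted p = 0.108), with no filter on low values (0.0771), with constant prior variance (0.0606) and once mitochondrial genes and the 20 most abundant genes were removed and TPM rescaled (0.0547). The other 6 called members kept their call and direction in each of these fits.

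The genes are spread over 9 chromosomes. In the deposited GRCm38 coordinates Fos lies at chr12:85473890-85477273, Fosb at chr7:19302696-19310051, Fosl1 at chr19:5447703-5455945, Fosl2 at chr5:32135801-32157842 and Jun at chr4:95049034-95052222. Junb (chr8:84974484-84978718) and Jund (chr8:70698949-70700616) share a chromosome and lie 14.3 Mb apart. Egr1 is at chr18:34859823-34864984, Atf3 at chr1:191170296-191218039 and Ier3 at chr17:35821684-35822923. All are annotated as protein-coding, and 9 of the 10 positions are the same in GENCODE release M21, the exception being Fosl1. In their longest coding transcript Jun, Junb and Jund have 1 exon and Egr1 and Ier3 have 2. So 5 of the 10 have up to 2 exons there, against 6.94% of 11730 tested protein-coding genes.

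Short-lived transcripts of this class often carry AU-rich elements in the 3′ untranslated region, which recruit decay factors such as the Zfp36 protein. The pentamer ATTTA was counted in that region of the longest coding transcript of each gene in GENCODE release M21, overlapping matches included. It occurred at least once in all 10, against 67.7% of the tested protein-coding genes, at a median of 2.20 per kb against 1.24 per kb. Ier3 had the highest density, 5 copies or 8.16 per kb, followed by Fos with 4 copies or 4.91 per kb and Junb with 2 copies or 4.12 per kb. Fosb had the lowest, 1 copy or 0.466 per kb. The longer TTATTTATT was found in Fos and Fosl2 and in 7.66% of the tested protein-coding genes. Of the members densest in ATTTA, Ier3 was higher in 3D, Junb lower, and Fos not called.

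Promoter sequences are shown for Fos, Jun, Junb and Ier3, because these members had, in this order, no call, no call, a lower and a higher level in 3D, and because their RefSeq start site lies within 50 bases of the start in the deposited table. RefSeq windows of 300 bases (250 before to 50 from the start site, build GRCm38.p6) were used for 8 members. The RefSeq start sites of Jund, Fosl2 and Atf3 lie 1210 bases upstream, 671 bases downstream and 34706 bases downstream of the start in the table, and their windows are not printed, and Egr1 and Fosl1 were not analysed here. Each window is written 5′ to 3′ on the gene's strand, with matches to 7 motifs in capitals.
Fos, chr12:85473640-85473939, plus strand: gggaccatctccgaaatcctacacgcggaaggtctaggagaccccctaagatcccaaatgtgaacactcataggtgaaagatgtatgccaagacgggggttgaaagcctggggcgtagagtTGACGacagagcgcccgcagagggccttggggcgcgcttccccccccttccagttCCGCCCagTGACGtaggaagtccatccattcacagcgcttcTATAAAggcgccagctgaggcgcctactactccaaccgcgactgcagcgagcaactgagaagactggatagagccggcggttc
Jun, chr4:95052173-95052472, minus strand: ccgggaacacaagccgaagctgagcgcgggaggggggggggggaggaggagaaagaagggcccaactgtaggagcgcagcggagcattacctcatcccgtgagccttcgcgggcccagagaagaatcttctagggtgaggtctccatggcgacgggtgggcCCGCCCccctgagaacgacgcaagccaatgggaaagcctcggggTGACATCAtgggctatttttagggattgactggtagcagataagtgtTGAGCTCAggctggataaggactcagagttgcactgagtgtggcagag
Junb, chr8:84978699-84978998, minus strand: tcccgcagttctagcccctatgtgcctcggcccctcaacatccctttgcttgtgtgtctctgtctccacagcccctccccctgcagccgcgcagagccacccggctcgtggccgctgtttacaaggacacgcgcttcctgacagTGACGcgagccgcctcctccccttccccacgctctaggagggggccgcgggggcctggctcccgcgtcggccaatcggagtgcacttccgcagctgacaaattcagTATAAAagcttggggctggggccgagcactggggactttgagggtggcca
Ier3, chr17:35821463-35821762, plus strand: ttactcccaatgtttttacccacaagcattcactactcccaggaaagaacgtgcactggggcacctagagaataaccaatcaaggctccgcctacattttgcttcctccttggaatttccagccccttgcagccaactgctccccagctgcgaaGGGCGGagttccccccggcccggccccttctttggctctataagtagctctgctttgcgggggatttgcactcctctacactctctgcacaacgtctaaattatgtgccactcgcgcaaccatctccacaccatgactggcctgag

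The motifs were the core TGACG of the cyclic AMP response element (CRE), the AP-1 site TGANTCA, the CRE-like site TGANNTCA, the EGR site GCGNGGGCG, the GC box GGGCGG, the TATA box TATAAA and the CArG box, the binding site of the serum response factor. Both strands were searched, and a GC box can overlap an EGR site, as TGACG can a CRE-like site. Fos had TGACG at -129 and -66 from the start site and TATAAA at -33, and Jun had the CRE-like TGACATCA at -45. Junb had TGACG at -106 and TATAAA at 0, on the RefSeq start site itself rather than upstream of it. That start site lies 30 bases upstream of the deposited one, so the Junb positions depend on which start is used. Counted from the deposited start, TATAAA begins 30 bases upstream. In the Ier3 window only a GC box at -96 was found. TGACG was in 4 of the 8 windows (Fos, Fosb, Junb and Atf3), against 20.8% of 32851 promoter windows of the same length. A CRE-like site was in 2 (Jun and Jund, 14.1% of all windows), an EGR site in 2 (Fosb and Fosl2, 5.55%), a TATA box in 2 (Fos and Junb, 13.6%) and a GC box in 6 (35.7%). AP-1 sites (7.81%) and CArG boxes (1.63%) had no match in the 8 windows. These counts include the windows of Jund, Fosl2 and Atf3, which lie 1210, 671 and 34706 bases from the deposited start. Whether those windows cover the promoters in use in these cells was not tested. The 8 windows held from 3 (Jund) to 32 (Fosl2) CpG, a C followed by a G. All but that of Jund were above the median of 7 over all promoter windows. TGACG, the EGR site and the GC box each contain CG, and the part of base composition in their shares was not tested. The motif counts are matches of letters in a short window. Genes with TGACG included Fos and Fosb, which were not called, as well as Junb and Atf3, which were lower in 3D.

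Related genes were grouped by role in 7 lists, drawn up with earlier results of these data known, and some genes stand in 2 lists. Of the other immediate early genes 25 of 31 tested were called (80.6%, beside 50.5% of all tested genes), 11 higher and 14 lower, with a median log2 fold change of -0.09. Cyr61, a matricellular gene activated by serum response factor and YAP, had the largest change, from 194 and 208 TPM in 2D to 50.3 and 49.5 TPM in 3D (log2 fold change -1.99, adjusted p = 0.000202, limma). Gadd45b, a stress and NF-κB response gene, fell from 247 and 250 TPM to 71.0 and 75.7 TPM (-1.75, adjusted p = 0.000211, limma). Ctgf, a close relative of Cyr61, fell by 0.79 in log2 units (adjusted p = 0.000331, limma). Plk2, a stress-induced kinase, did not pass at 484 and 485 TPM in 2D and 461 and 452 TPM in 3D (adjusted p = 0.0901, limma).

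Genes of bZIP partners were called in 14 of 22 tested (63.6%, beside 50.5% of all tested genes), 8 higher and 6 lower (median 0.12). Maf, a bZIP factor that can pair with FOS and JUN proteins, rose by 0.90 in log2 units (adjusted p = 0.00445, limma), and Atf6, a sensor of stress in the endoplasmic reticulum, fell by 0.88 (adjusted p = 0.000587, limma). Cebpb, an acute phase factor of hepatocytes, had a log2 fold change of 0.23 (adjusted p = 0.0236, limma) and Ddit3, the stress factor CHOP, one of -0.21 (adjusted p = 0.0167, limma). Without 3D replicate 2 the count was 9 of 22, and 4785 of all 14116 tested genes were called in that fit, down from 7122.

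Upstream MAP kinase and serum response genes were called in 19 of 31 tested (61.3%, beside 50.5% of all tested genes), 12 higher and 7 lower (median 0.12). Map3k5, a stress-activated kinase upstream of JNK and p38, rose from 7.90 and 8.50 TPM to 21.9 and 22.2 TPM (log2 fold change 1.32, adjusted p = 0.000543, limma). Map2k7, a JNK kinase, rose by 1.03 (adjusted p = 0.00846, limma). Map2k2, an ERK kinase, rose by 0.29 and Hras fell by 0.38 (adjusted p = 0.00773 and 0.0032, limma). This count was 10 without 2D replicate 1 and without 3D replicate 2, where 5941 and 4785 of all 14116 tested genes were called. It was 10 with no filter (5977 of 31828 genes called) and 11 with constant prior variance (6755 of 14116).

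Genes of negative MAP kinase feedback were called in 12 of 21 tested (57.1%, beside 50.5% of all tested genes), 7 higher and 5 lower (median 0.07). Dusp6, an ERK phosphatase induced by ERK activity, rose from 116 and 118 TPM to 201.4 and 200.6 TPM (log2 fold change 0.78, adjusted p = 0.000447, limma). Spry1, an inhibitor of receptor signalling, rose from a mean of 0.438 to 2.12 TPM, a 3D mean of 4.85 times the 2D mean. On the log2(TPM + 1) scale, which understates changes at such low levels, the rise was 1.12 (adjusted p = 0.00499, limma). Dusp1, a phosphatase of JNK and p38 that is itself an immediate early gene, fell by 0.34 (adjusted p = 0.00252, limma). Dusp14 had 168 and 140 TPM in 2D and 43.3 and 22.4 TPM in 3D (-2.26, adjusted p = 0.00514, limma). ERK and JNK activity were not measured.

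**Figure D4:**
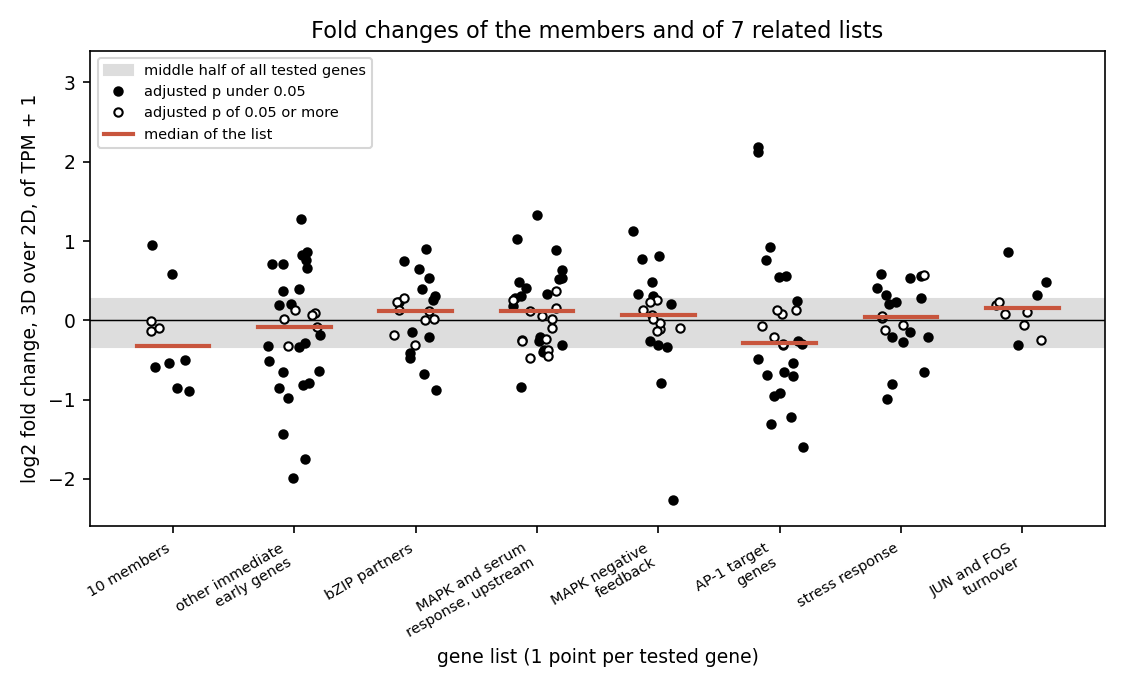
Log2 fold change of TPM + 1, 3D over 2D, of the 10 members and of the tested genes of 7 related lists, 1 point per gene. Filled points passed an adjusted p-value of 0.05, red lines are list medians and the grey band spans the quartiles of all tested genes. Medians lie between -0.32 for the members and 0.15 for JUN and FOS turnover, with calls on both sides of 0 in every list.

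Genes described as AP-1 targets were called in 19 of 26 tested (73.1%, beside 50.5% of all tested genes). Of these 7 were higher and 12 lower, where 23.4% and 27.1% of all tested genes were, and the median log2 fold change was -0.28. All of them have other regulators as well. Sprr1a, an epithelial cornified envelope gene, had the largest change, from 517 and 517 TPM to 2349 and 2347 TPM (log2 fold change 2.18, adjusted p = 9.63e-05, limma), and Mmp13, a collagenase, rose from 2.52 and 2.55 TPM to 13.7 and 15.0 TPM (2.12, adjusted p = 0.000361, limma). In the other direction S100a6, a calcium-binding protein gene, fell from 4471 and 4335 TPM to 2341 and 2341 TPM (-0.91, adjusted p = 0.000241, limma), and Krt19, a keratin of biliary epithelium, fell by 0.49 (adjusted p = 0.00138, limma). The list thus held large differences of both signs.

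In the list of stress response genes that includes the ATF4 pathway upstream of Atf3, 15 of 20 tested were called (75%, beside 50.5% of all tested genes), 8 higher and 7 lower (median 0.04). Asns, asparagine synthetase, fell from 214 and 209 TPM to 104 and 108 TPM (log2 fold change -0.99, adjusted p = 0.000335, limma), and Ppp1r15a, a phosphatase subunit that reverses eIF2 phosphorylation, fell by 0.81 (adjusted p = 0.00495, limma). Hspa5, the endoplasmic reticulum chaperone BiP, had 391 and 826 TPM in 2D and 837 and 854 TPM in 3D and did not pass (adjusted p = 0.239, limma). The count of called genes was 9 without 3D replicate 1 and 8 without 3D replicate 2, where 4720 and 4785 of all 14116 tested genes were called. Genes of JUN and FOS protein turnover were called in 4 of 10 tested (40%, beside 50.5% of all tested genes), 3 higher and 1 lower (median 0.15). Trib1, a pseudokinase adaptor for the ubiquitin ligase COP1, rose by 0.86 (adjusted p = 0.00198, limma), Itch, a ligase for JUN proteins, rose by 0.49 (adjusted p = 0.00849, limma), and Ddb1 fell by 0.32 (adjusted p = 0.00306, limma). Skp1a had a log2 fold change of 0.19 (adjusted p = 0.0527, limma).

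The genes whose profile over the 4 libraries was closest to that of Jund, the member with the highest mean over the 4 libraries though below Junb in 2D, were Arhgap5, Mlycd and Nbl1. Their distances, taken over gene-centred log2(TPM + 1), were 0.0255, 0.0274 and 0.0335. Arhgap5 stood at 41.1 and 40.7 TPM in 2D and 58.1 and 63.3 TPM in 3D. With only 4 libraries, 137 genes lay within a distance of 0.1 of Jund.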

How the data were processed

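RNA-seq libraries made with the KAPA stranded mRNA kit were trimmed with cutadapt 1.8.3 and Trimmomatic 0.36, mapped with HISAT2 2.0.5 to GRCm38 and quantified with StringTie 1.3.4 on Ensembl release 93. The authors deposited 1 TPM column for each library, without pooling. The authors also deposited a log2 fold change and a p-value from DESeq2, which were not used here. Depth is unknown, so no counting interval was computed, and the number of libraries limits the precision.

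The labels gave the culture of every library. The test used limma 3.58.1 (R 4.3.3) after a log2(TPM + 1) transform, on genes averaging 1 TPM or more (trend and robust prior, two-sided, Benjamini-Hochberg over all tested genes). Fold changes on this scale understate changes of low genes. An exact permutation test of 2 against 2 cannot give a p-value under 0.333. The script was tested on simulated data. Members and lists were chosen with earlier results of these data known. Named genes of a list were its 2 highest in mean TPM and its 2 largest called changes. The 3 profiles nearest to the member with the highest mean TPM were named too. Sequences came from RefSeq and GENCODE, read with Python 3.11.15, and figures were drawn with matplotlib 3.10.9. Alternatives covered pseudocounts, filters, scaling, a replicate block, the variance prior and each library left out. Count-based tests could not be applied to TPM.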

Additional observations from a re-analysis of the deposited data

How the results depend on the processing

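The count of called members was 7 or 6 in each of the 13 alternatives, and it was 6 wherever Atf3 lost its call. With 1 library left out at a time there were 6 to 7 called members and 4720 to 5954 called genes over all those tested, where a lone library is assumed to vary like the others. The lowest of these was without 3D replicate 1. The other alternatives gave 5977 to 7147 called genes. Of 129 fold changes of members under these alternatives 116 kept their direction and side of the threshold, 7 lost the call (all Atf3) and 6 changed sign. The sign changes were of members without a call. Jun had a log2 fold change of 0.0032 when libraries were centred on the median, 0.036 under quantile normalization and 0.019 once mitochondrial genes and the 20 most abundant genes were removed and TPM rescaled. With each library left out it ran from -0.023 to 0.0028 for Jun and from -0.21 to 0.026 for Fosb. The cause was not tested. The summed FOS family log2 ratio ran from -0.91 to -0.77 with each library left out, and that of the JUN family from 0.017 to 0.084.

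Same-numbered libraries did not deviate together (correlation -0.0549 across 14116 genes, which are not independent). With 2 libraries per culture this is a single comparison, which cannot tell whether the numbers pair the libraries. With the replicate block 6 members and 6248 genes were called. Fosb could not be fitted with a mean TPM of at least 5, since it falls below that level. The count tests (edgeR and DESeq2) planned in case the table held counts were not run.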

Other observations

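The antisense genes that overlap members were listed at low levels. They were looked up after the members' values were seen. Junos, antisense to Jun, had 7.22 and 6.17 TPM in 2D and 4.20 and 4.49 TPM in 3D, while Jun itself stayed between 151 and 154 TPM. Gm11175, antisense within Jund, had 15.4 and 8.16 TPM in 2D and 16.01 and 11.9 TPM in 3D. At its 3′ end the deposited span of Junb overlaps Prdx2, a peroxiredoxin gene on the other strand. Prdx2 had 364 and 343 TPM in 2D and 254 and 262 TPM in 3D, lower in 3D like Junb. The longest coding transcript of Junb, 1809 bases, is shorter than that span, and whether it reaches Prdx2 was not tested. Reads were aligned with the strand of the kit, and how reads in these overlaps were shared was not tested. No other member overlapped a gene of the deposited table.

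Hspa5 was listed at 391 TPM in 2D replicate 1 and at 826 TPM in 2D replicate 2, while both 3D libraries lay at 837 and 854 TPM. The same 2D replicate 1 had the highest Atf3 level of the 4 libraries, 463 TPM. Their part in the spread of Atf3 was not tested.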
